A study of Homo sapiens with 8 samples.

Results

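Messenger RNA of 10 genes of the NF-kB system was compared between LY2 cells depleted of SRC-1 and control LY2 cells. The genes are the 5 subunits NFKB1, NFKB2, RELA, RELB and REL, the IkB inhibitors NFKBIA and NFKBIE, and the feedback genes TNFAIP3, BIRC3 and TRAF1. They were taken by symbol from a table of 63677 genes (a single row each). LY2 is an endocrine-resistant breast cancer line derived from MCF-7. The shSRC1 cells stably carried short hairpin RNA against NCOA1, the gene of the nuclear receptor coactivator SRC-1, and the shNT cells a non-targeting hairpin. Cells of both groups were maintained in 500 ng/mL puromycin and 1e-08 M 4-hydroxytamoxifen, then went without steroids for 72 h and received 1e-07 M 4-hydroxytamoxifen for 8 h. There were 4 libraries in each group. The labels name neither the hairpin sequence nor whether a line is a clone or a pool, and they do not state that replicates were grown separately, so the p-values speak only of the spread from library to library, which can be technical. In bulk RNA, fewer cells with a transcript and less of it per cell cannot be told apart.

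Values are normalized reads, that is, the reads of a gene divided by the size factor of the library. Libraries held 33771775 to 67022036 reads, the fewest in shSRC1 replicate 2. NCOA1 averaged 2036 ± 151 normalized reads in shSRC1 and 4396 ± 137 in shNT (SD, n = 4 each; limma adjusted p = 2.25e-07), so the target was lower in the cells labelled as depleted. All 8 luminal breast markers were detected. Their sum was 513845 to 583254 normalized reads in the shSRC1 libraries and 340043 to 416533 in the shNT libraries. KRT8, KRT18 and KRT19 were higher in shSRC1, and the other 5 markers did not pass a limma adjusted p of 0.05. Their log2 fold changes, shSRC1 over shNT, were -0.16 for EPCAM, -0.13 for ESR1, -0.07 for FOXA1, 0.11 for CDH1 and 0.19 for GATA3. The part of the markers' differences in the members' values was not tested. The 13 leukocyte markers summed to 43.6 to 66.5 normalized reads in the shSRC1 libraries and 43.6 to 60.3 in the shNT libraries, with CD3D and MS4A1 at 0 in every library. Only 3 had enough reads to be tested, and none passed. CSF1R averaged 19.9 ± 9.8 in shSRC1 and 12.1 ± 5.1 in shNT, and CD14 12.4 ± 7.7 and 12.6 ± 4.7. CD79A averaged 9.37 ± 3.15 in shSRC1 and 11.3 ± 5.3 in shNT (SD, n = 4 each). The 8 fibroblast markers summed to 1452 to 1978 in shSRC1 and 1634 to 2189 in shNT, of which COL1A1 alone averaged 1552 ± 235 in shSRC1 and 1810.4 ± 254 in shNT (SD, n = 4 each). The 5 endothelial markers summed to 224 to 292 in shSRC1 and 240.4 to 282 in shNT, with PECAM1 at 0. Most of this was VWF, at 237 ± 36 in shSRC1 and 248 ± 16 in shNT (SD, n = 4 each). KDR averaged 19.1 ± 11.2 in shSRC1 and 3.65 ± 1.34 in shNT, without overlap. CDH5 averaged 1.82 ± 0.74 and 6.84 ± 4.02, and TIE1 2.76 ± 0.84 and 5.02 ± 3.32, shSRC1 before shNT.

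NF-kB factors are dimers of Rel-family subunits. In resting cells IkB proteins such as the NFKBIA product hold them in the cytoplasm, and signals from cytokine receptors lead the IKK kinases to mark IkB for destruction. NFKB1 and NFKB2 encode precursors that are processed to the DNA-binding subunits p50 and p52, while RELA, RELB and REL carry the activation domains. Many of the pathway's own genes carry kB sites and are switched on by it, so NFKBIA, TNFAIP3, BIRC3 and TRAF1 are widely read as its feedback genes. In breast cancer the pathway has been linked to endocrine resistance.

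The start regions of the 5 members that passed the test below are shown because kB sites in front of pathway genes are described as a route of its feedback. Such feedback was not measured here. The sequences are RefSeq's on GRCh38.p14, a different build from the GRCh37 of the deposited table, and each gives the 250 bases before an annotated gene start, 5′ to 3′ on the gene's strand. Capitals mark matches to the 10-base kB consensus on either strand, a palindromic match counting once.
NFKB2, chr10:102394328-102394577, plus strand: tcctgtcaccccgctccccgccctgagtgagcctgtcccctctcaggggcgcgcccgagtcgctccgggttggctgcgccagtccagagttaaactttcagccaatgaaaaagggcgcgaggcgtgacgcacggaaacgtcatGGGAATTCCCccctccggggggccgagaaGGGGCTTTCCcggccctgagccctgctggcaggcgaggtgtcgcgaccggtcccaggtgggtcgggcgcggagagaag
REL, chr2:60881324-60881573, plus strand: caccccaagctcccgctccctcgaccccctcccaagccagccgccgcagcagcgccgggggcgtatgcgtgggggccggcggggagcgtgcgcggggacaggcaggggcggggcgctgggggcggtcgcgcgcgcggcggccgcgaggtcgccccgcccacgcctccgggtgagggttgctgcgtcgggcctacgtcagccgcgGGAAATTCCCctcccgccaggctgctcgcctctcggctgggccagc
NFKBIA, chr14:35404750-35404999, minus strand: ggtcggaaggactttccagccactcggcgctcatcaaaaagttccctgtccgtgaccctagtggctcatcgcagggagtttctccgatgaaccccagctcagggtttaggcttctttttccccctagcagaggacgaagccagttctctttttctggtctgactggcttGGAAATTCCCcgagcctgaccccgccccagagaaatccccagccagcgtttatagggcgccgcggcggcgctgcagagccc
TNFAIP3, chr6:137867009-137867258, plus strand: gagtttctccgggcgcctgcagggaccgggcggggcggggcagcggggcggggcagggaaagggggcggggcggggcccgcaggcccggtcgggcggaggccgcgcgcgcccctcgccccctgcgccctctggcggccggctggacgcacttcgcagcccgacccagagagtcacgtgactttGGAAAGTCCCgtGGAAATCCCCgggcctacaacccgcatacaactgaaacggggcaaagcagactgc
BIRC3, chr11:102317234-102317483, plus strand: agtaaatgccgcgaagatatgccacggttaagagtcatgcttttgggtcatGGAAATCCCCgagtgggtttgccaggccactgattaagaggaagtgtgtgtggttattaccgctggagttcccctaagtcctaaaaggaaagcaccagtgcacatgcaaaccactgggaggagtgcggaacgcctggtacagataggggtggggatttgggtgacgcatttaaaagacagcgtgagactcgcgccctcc
Windows of 300 bases, from 250 before to 50 after a start, were searched. Windows were found for 8 of the 10 members, all but RELB and NFKBIE, and 6 of the 8 held a match. In NFKB2 the matches began 107 and 78 bases before the start shown. Another NFKB2 start had matches at 176 and 21 bases before it, the nearer reading GGGACTTTCC. A further NFKB2 start, upstream of the start shown, had no match in its window. The 2 matches of TNFAIP3 began 67 and 55 bases before its start, that of REL 46, that of NFKBIA 81 and that of BIRC3 199. NFKB1 held GGGAATTTCC 49 bases before a start and had no match in the window of another. Neither RELA nor TRAF1 had a match in its windows. By window, 7 of the members' 14 held a match, beside 7.73% of all 35116 windows, and 1.09% of all windows held 2 or more. By gene, 9.16% of all 27305 genes with a window had a match. A match is a run of letters and not evidence that a factor binds there.

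Of the 10 members, 4 fell in shSRC1 cells, 1 rose and 5 did not pass the test. BIRC3, NFKB2, REL and TNFAIP3 fell, and NFKBIA rose. The test was limma on log2(value + 1) over 19559 genes, with a two-sided p adjusted by Benjamini-Hochberg and a threshold of 0.05, and fold changes are shSRC1 over shNT on that log2(value + 1) scale. Every member had at least 10 normalized reads in all 8 libraries, so none entered the test through only 1 group. Calls were common in this comparison: 23.2% of tested genes passed, 12.0% higher and 11.2% lower. The median log2 fold change of the members was -0.27, beside a median of 0.00 over all genes tested. The groups did not overlap for 6 members, where 29.0% of tested genes had no overlap.

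**Figure D1:**
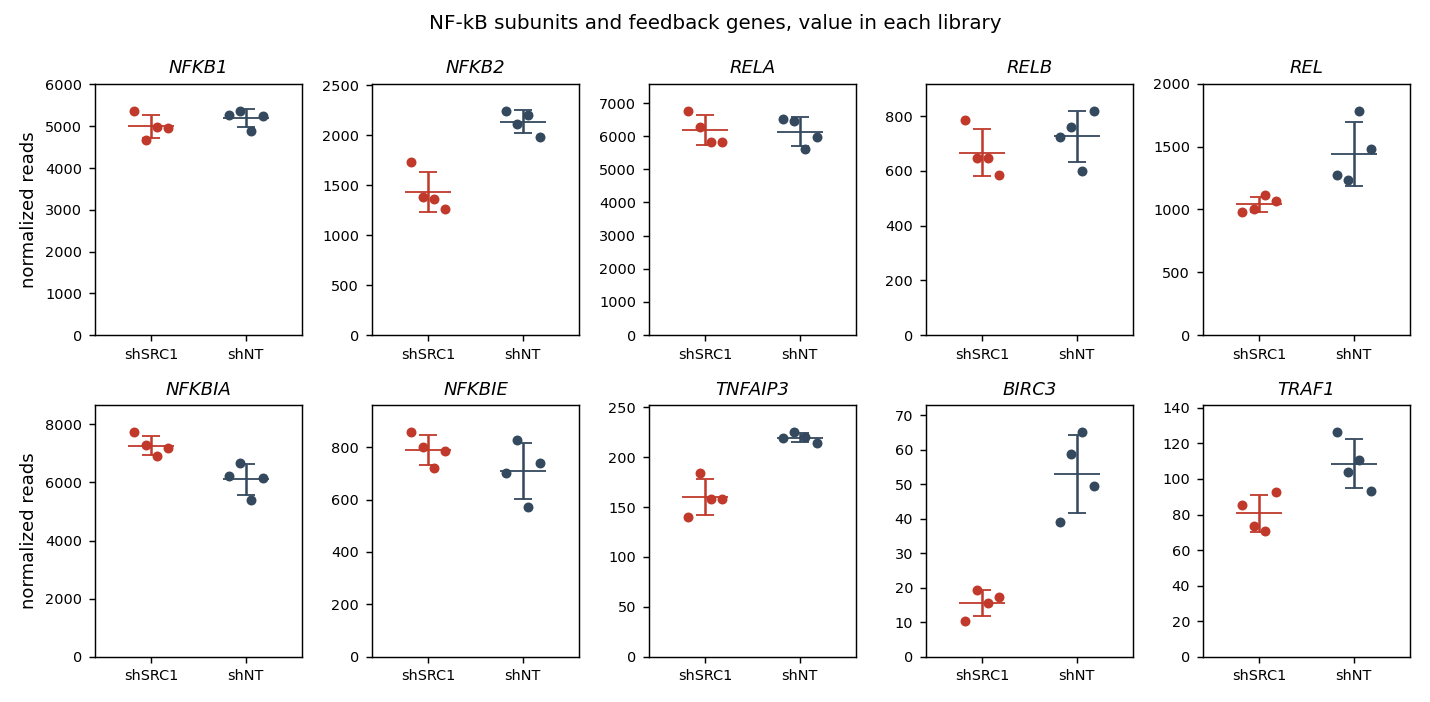
Normalized reads (y axis, from 0) of each of the 10 genes in the 4 shSRC1 and 4 shNT libraries (x axis); points are libraries in replicate order and bars the mean and SD. All shSRC1 points lie below all shNT points for NFKB2, REL, TNFAIP3, BIRC3 and TRAF1 and above them for NFKBIA, while the groups overlap for NFKB1, RELA, RELB and NFKBIE.

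Among the subunits, NFKB2 fell the most. NFKB2 (ENSG00000077150, chromosome 10) encodes p100, the precursor of p52 and the central protein of the non-canonical branch. It stood at 1728, 1380, 1364 and 1265 normalized reads in shSRC1 replicates 1 to 4, against 2248, 2108, 2199 and 1985 in shNT replicates 1 to 4. The highest shSRC1 library, replicate 1, was still below the lowest shNT library. The mean was 1434 ± 202 in shSRC1 and 2135 ± 115 in shNT (SD, n = 4 each), which is -0.58 as a log2 fold change, with a standard error of 0.10 and a limma adjusted p of 0.000914. It passed in all 21 alternative settings, with limma, edgeR or DESeq2 adjusted p-values from 1.55e-06 to 0.0120.

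Genes near NFKB2 and BIRC3 fell more often than tested genes as a whole, of which 11.2% fell and 12.0% rose. The neighbours were protein-coding genes only, while the whole held other gene types too, so these shares are of unlike sets. Of the 20 tested protein-coding genes nearest to NFKB2, 10 on each side in GENCODE order, 5 fell and none rose in limma (adjusted p). Their median log2 fold change was -0.09. Of the 100 nearest, 36 fell and 2 rose, with a median of -0.16. The 5 that fell among the 20 were KCNIP2, OGA, GBF1, PPRC1 and NOLC1, named after their values were seen. Their log2 fold changes were -0.74, -0.36, -0.31, -0.27 and -0.22, beside -0.58 for NFKB2 (limma adjusted p = 0.0193, 0.00997, 0.0356, 0.0477 and 0.0481 for the 5). The part of the surroundings in NFKB2's change was not tested. Around BIRC3, the 20 nearest had a median of -0.21, with 4 that fell and 2 that rose, and of the 100 nearest 22 fell and 5 rose, with a median of -0.14. The 20 nearest to REL had a median of -0.15, with 3 that fell and 3 that rose. Those nearest to RELB had a median of -0.09, with 3 that fell and 0 that rose. Of the 100 nearest, 12 fell and 9 rose around REL and 12 fell and 8 rose around RELB, near the shares of all tested genes. For the remaining members the median of the 20 nearest lay between -0.07 for TNFAIP3 and 0.18 for NFKBIE. Near NFKBIA, which rose, 4 of the 20 nearest rose and 0 fell, and 18 of the 100 nearest rose and 6 fell. Near TNFAIP3, which fell, 11 of the 100 nearest fell and 16 rose. Near the target NCOA1, 17 of the 100 nearest fell and 7 rose. Outside NFKB2 and BIRC3, medians of the 100 nearest lay between -0.07 for REL and 0.07 for NFKBIA.

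REL (ENSG00000162924, chromosome 2), which encodes c-Rel, a subunit best known from lymphocytes, also fell. The shSRC1 libraries held 981, 1006, 1114 and 1068 normalized reads, against 1271, 1234, 1787 and 1479 in the shNT libraries. The shSRC1 values lay close together and the shNT values were spread, with replicate 3 far above the others. Its log2 fold change came to -0.46 with a standard error of 0.11 (n = 4 each; limma adjusted p = 0.00990). It passed in all 21 alternatives, and was -0.35 without shNT replicate 3 and -0.33 once the libraries had been adjusted for the length and GC content of transcripts. The 13 leukocyte markers together held 43.6 to 66.5 normalized reads in the shSRC1 libraries and 43.6 to 60.3 in the shNT libraries, as given above. Their part in the values of REL was not tested.

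RELA (ENSG00000173039), which encodes p65, the main activating subunit of the canonical branch, showed a difference near 0. It stood at 6772, 6272, 5833 and 5830 normalized reads in shSRC1 and at 6515, 6461, 5607 and 5975 in shNT. The groups overlapped throughout, and the log2 fold change of 0.01 had a 95% confidence interval of -0.17 to 0.19 (limma adjusted p = 0.951, n = 4 each). NFKB1 (ENSG00000109320), which encodes the p105 precursor of p50, averaged 4997 ± 281 normalized reads in shSRC1 and 5197 ± 209 in shNT (SD, n = 4 each). Its log2 fold change was -0.06, with an interval of -0.22 to 0.11 (limma adjusted p = 0.609). RELB (ENSG00000104856), the usual partner of p52, held 787, 647, 648 and 586 normalized reads in shSRC1 and 725, 762, 601 and 821 in shNT. Its groups overlapped, and the log2 fold change of -0.12 had an interval of -0.37 to 0.13 (limma adjusted p = 0.462, n = 4 each). For these 3 subunits, changes within the intervals could not be told from the spread between libraries.

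**Figure D2:**
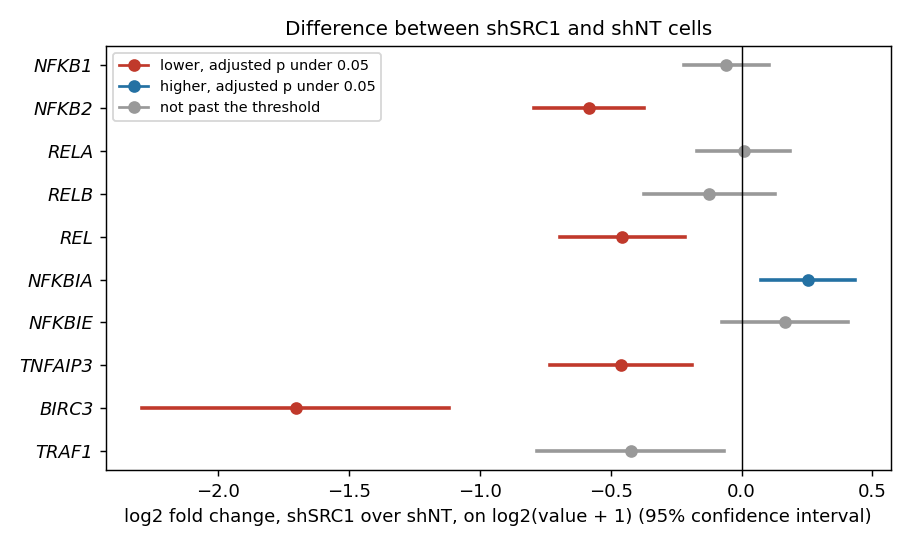
Log2 fold change of each gene, shSRC1 over shNT on log2(value + 1) (x axis), with the 95% confidence interval from limma; red marks genes that fell, blue the gene that rose and grey those not past an adjusted p of 0.05. BIRC3 lies farthest from 0 at -1.70, and NFKBIA is the only gene past the threshold on the right, at 0.25.

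The inhibitor NFKBIA (ENSG00000100906, chromosome 14), which encodes IkB-alpha, rose where the other called members fell. It stood at 7719, 7266, 6896 and 7182 normalized reads in shSRC1, against 6206, 6666, 5379 and 6163 in shNT. No shSRC1 library was as low as the highest shNT library, though the gap was small beside the spread of shNT. The mean was 7266 ± 341 in shSRC1 and 6104 ± 534 in shNT (SD, n = 4 each). On the log2 scale the difference was 0.25, with a standard error of 0.08 (limma adjusted p = 0.0403). This call depended on the setting. It was missed in 10 of 21 alternatives, among them edgeR's TMM scaling (limma adjusted p = 0.0528), and passed in edgeR's quasi-likelihood test (adjusted p = 0.0337) and in DESeq2 (adjusted p = 0.0148) on recovered reads. It was lost without shSRC1 replicate 1, 2, 3 or 4 (limma adjusted p = 0.0894, 0.0891, 0.0595 and 0.0716) and without shNT replicate 1 or 4 (0.0749 and 0.0757). With the length and GC correction the log2 fold change was 0.16 (limma adjusted p = 0.0448).

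NFKBIE (ENSG00000146232), which encodes IkB-epsilon, had 856, 799.5, 719.7 and 784 normalized reads in shSRC1 and 701, 825, 571 and 738 in shNT. The groups overlapped through shNT replicate 2. Its log2 fold change was 0.17 with a 95% confidence interval of -0.08 to 0.41 (limma adjusted p = 0.298, n = 4 each).

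Of the feedback genes that act on signalling complexes, TNFAIP3 (ENSG00000118503, chromosome 6) fell. It encodes A20, a ubiquitin-editing enzyme that shuts off signalling from tumour necrosis factor and Toll-like receptors. It stood at 139.6, 184, 158 and 159 normalized reads in shSRC1, against 219, 225, 220.0 and 214 in shNT. The shNT libraries lay close together and every shSRC1 library was below them. The change was -0.46 on the log2 scale, with a standard error of 0.13 (n = 4 each; limma adjusted p = 0.0185). It passed in 20 of 21 alternatives and missed with no filter on low values (limma adjusted p = 0.0557). A gene on the opposite strand, annotated as AL357060.1 in GENCODE, overlaps it and averaged 40.1 normalized reads in shSRC1 and 26.2 in shNT, (limma adjusted p = 0.0965). Whether reads were assigned by strand is not stated in the labels, so reads where the genes overlap may be mixed or left uncounted.

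BIRC3 (ENSG00000023445, chromosome 11) showed the largest fall of the 10. It encodes cIAP2, a ubiquitin ligase that joins tumour necrosis factor receptor complexes and restrains cell death. The shSRC1 libraries held 10.4, 19.2, 15.4 and 17.4 normalized reads, on 11, 11, 17 and 19 reads. The shNT libraries held 39.0, 58.6, 65.0 and 49.3, on 42, 66, 70 and 55 reads. Every shNT library was at least 2 times the highest shSRC1 library, but the gene was rare in both groups. Its mean was 15.6 ± 3.8 in shSRC1 and 53.0 ± 11.3 in shNT (SD, n = 4 each), or -1.70 on the log2 scale (95% confidence interval -2.29 to -1.12, standard error 0.28, limma adjusted p = 0.000641). It passed in all 20 alternatives that kept it, and with a minimum of 50 normalized reads it was not tested. BIRC2, its neighbour on chromosome 11, which encodes the related ligase cIAP1, averaged 1306 ± 198 in shSRC1 and 1534 ± 88 in shNT (SD, n = 4 each), a log2 fold change of -0.24 that missed the threshold (limma adjusted p = 0.108).

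TRAF1 (ENSG00000056558, chromosome 9), an adaptor that binds TRAF2 and the cIAP ligases, had 85.4, 73.5, 70.9 and 92.6 normalized reads in shSRC1 and 126, 104, 110.5 and 93.3 in shNT. The groups were separated by less than 1 normalized read, between shSRC1 replicate 4 and shNT replicate 4. The log2 fold change of -0.42 (SE 0.17) missed the threshold in limma (adjusted p = 0.0803, n = 4 each). It passed in 1 of 21 alternatives, the length and GC correction without a replicate block (limma adjusted p = 0.0424).

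**Figure D3:**
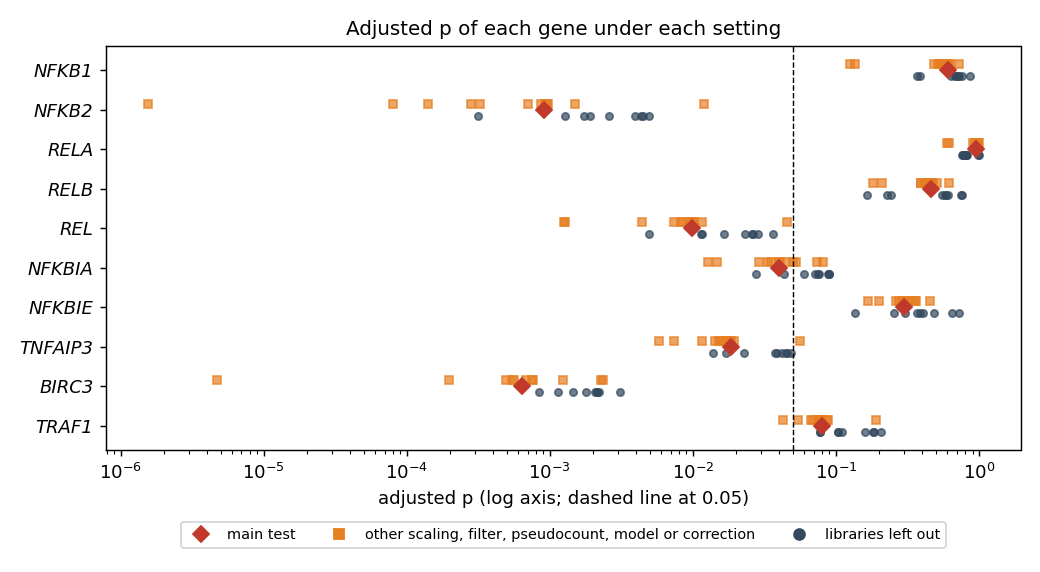
Adjusted p (x axis, log scale, dashed line at 0.05) of each gene in the main test (diamond), under other scalings, filters, pseudocounts, models and corrections (squares) and with libraries left out (circles). NFKB2, REL and BIRC3 stay left of the line throughout, TNFAIP3 crosses it in 1 setting, and NFKBIA lies on both sides.

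Levels of different genes can be set side by side only per length, here normalized reads per kilobase of the longest GENCODE transcript. NFKBIA was the most abundant member at 4663 ± 219 per kilobase in shSRC1 and 3918 ± 343 in shNT (SD, n = 4 each). RELA followed at 1941 ± 141 and 1929 ± 135, NFKB1 at 1223 ± 69 and 1272 ± 51, and NFKB2 at 419.9 ± 59 and 625 ± 34, shSRC1 before shNT in each. NFKBIE at 306 ± 22 in shSRC1 and 275 ± 41 in shNT did not differ beyond its spread from RELB at 291 ± 37 and 317 ± 41. REL came below them at 92.6 ± 5.4 in shSRC1 and 128 ± 23 in shNT, ahead of TNFAIP3 at 33.8 ± 3.8 and 46.4 ± 0.9. TRAF1 stood at 12.7 ± 1.6 in shSRC1 and 17.2 ± 2.2 in shNT, and BIRC3 was lowest at 3.01 ± 0.73 and 10.2 ± 2.2. The order was the same per kilobase of all annotated exons joined.

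Within a library, ratios between members do not depend on the size factor. They are given as descriptions, since the pairs were chosen with the changes known. NFKB2 over NFKB1, the precursors of p52 and p50, stood at 0.322, 0.295, 0.274 and 0.255 in shSRC1, against 0.426, 0.392, 0.449 and 0.378 in shNT. REL over RELA was 0.145, 0.160, 0.191 and 0.183 in shSRC1 and 0.195, 0.191, 0.319 and 0.248 in shNT, where shSRC1 replicate 3 and shNT replicate 2 nearly met. NFKBIA over NFKB1 was 1.44, 1.55, 1.39 and 1.45 in shSRC1 and 1.18, 1.24, 1.10 and 1.17 in shNT. In all 3 ratios the groups did not overlap. NFKB2 over NFKB1 and REL over RELA were lower in shSRC1, and NFKBIA over NFKB1 was higher.

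Of the RNA of the 5 subunits per kilobase, NFKB2 made up 10.5% ± 0.7 in shSRC1 and 14.7% ± 1.0 in shNT (SD, n = 4 each), with no overlap. RELA made up 48.9% ± 1.2 in shSRC1 and 45.1% ± 1.2 in shNT, also with no overlap, although its level differed little. The shares of NFKB1, RELB and REL overlapped between the groups. RELB over NFKB2 was 0.455 to 0.475 in the shSRC1 libraries and 0.273 to 0.413 in the shNT libraries, with no overlap.

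**Figure D4:**
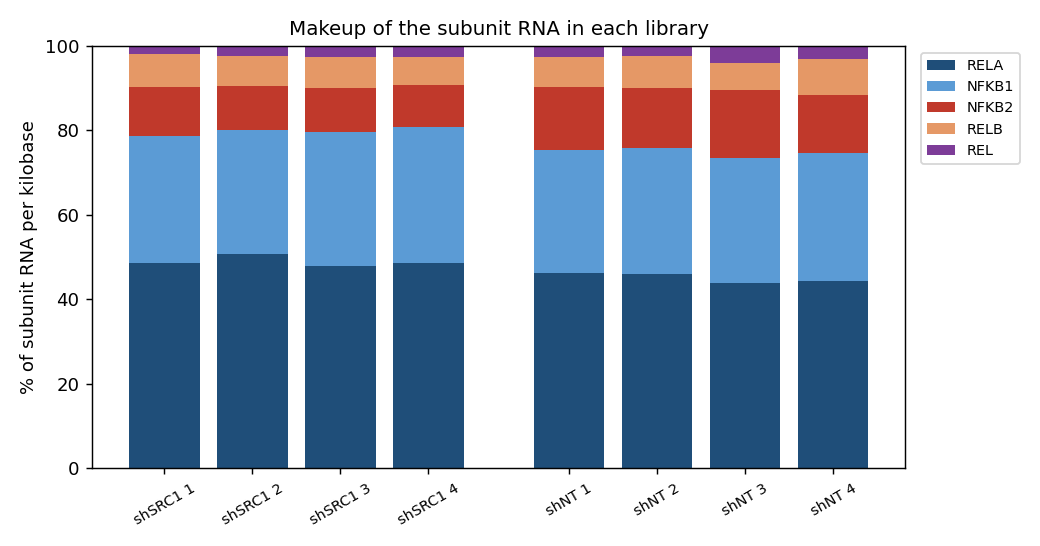
Share of each subunit in the summed subunit RNA per kilobase (y axis, percent) in the 4 shSRC1 libraries on the left and the 4 shNT libraries on the right. The NFKB2 segment spans 9.8% to 11.6% in shSRC1 and 13.7% to 16.0% in shNT.

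No library was high or low for all members. shSRC1 replicate 1 held the highest shSRC1 value for 6 members, NFKB1, NFKB2, RELA, RELB, NFKBIA and NFKBIE, and the lowest for REL, TNFAIP3 and BIRC3. shNT replicate 3 held the lowest shNT value for NFKB1, RELA, RELB, NFKBIA and NFKBIE and the highest for REL and BIRC3. Across genes, which are not independent replicates, a library's deviation from the mean went with GC content at a Spearman's rho of 0.48, 0.19, -0.10 and -0.22 in shSRC1 replicates 1 to 4. In shNT replicates 1 to 4 that rho was 0.18, -0.09, -0.22 and -0.21. With transcript length the rho was -0.07, -0.17, -0.02 and -0.01 in shSRC1 replicates 1 to 4 and 0.00, -0.01, 0.11 and 0.09 in shNT replicates 1 to 4, lower in most shSRC1 than shNT libraries. After the length and GC correction, REL, whose longest transcript has 11255 bases, had a log2 fold change of -0.33 in place of -0.46, and NFKBIA, with 1558 bases, 0.16 in place of 0.25. Under that correction BIRC3, NFKB2, REL, TNFAIP3 and NFKBIA kept their direction and stayed past the threshold.

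For each called member, the 3 genes with the most similar pattern over the 8 libraries were found, by the root-mean-square difference of log2 values each centred on its own mean. For NFKB2 they were SOX13, DFNB31 and SLC12A7, with differences of 0.055 to 0.057. AGAP4, HOOK3 and IFT74 were nearest to REL (0.037 to 0.052), and TENM3, ATP6V1C2 and MKRN3 to TNFAIP3 (0.068 to 0.085). WDR5, CRTAP and SHMT1 were nearest to NFKBIA (0.022 to 0.026). For the rarer BIRC3 the nearest were BCAN, UGT1A8 and LRP1B, at a distance of 0.22 to 0.24. None of these genes is on the same chromosome as the member it resembles.

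The rest of the pathway was read from lists of its parts, each to be set beside the 23.2% of all tested genes that were called. Of 14 ligands, 12 were under the filter on low values in these cells, among them TNF at 0.93 ± 0.78 normalized reads in shSRC1 and 2.04 ± 1.34 in shNT (SD, n = 4 each). The only ligand call was EDA, the ectodysplasin gene, which averaged 151 ± 17 normalized reads in shSRC1 and 97.8 ± 20.5 in shNT (SD, n = 4 each; log2 fold change 0.64, limma adjusted p = 0.0151). Only 2 ligands were tested, so the called share of 50% rests on EDA alone. In limma 0 ligands fell, with 1 lower at an unadjusted p under 0.05, and edgeR and DESeq2 also had 0 lower. With so few tested, these counts say little of the ligands as a whole. EDA missed the threshold without shSRC1 replicate 4 (limma adjusted p = 0.0530).

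Of 21 receptors, 14 were tested, 2 rose and none fell, and at an unadjusted p under 0.05 limma still had 4 higher and 0 lower. Both edgeR and DESeq2 also had 2 higher and 0 lower. The called share was 14.3%. TNFRSF11A, which encodes RANK, a receptor with known roles in mammary epithelium, averaged 686 ± 30 normalized reads in shSRC1 and 394 ± 23 in shNT (SD, n = 4 each), a log2 fold change of 0.80 (limma adjusted p = 4.18e-05). The interleukin-1 receptor gene IL1R1 averaged 221 ± 31 and 158 ± 21 (n = 4 each; log2 fold change 0.47, limma adjusted p = 0.0325) with overlapping groups. Its call was lost without shSRC1 replicate 2, 3 or 4 and without shNT replicate 1, 3 or 4, where limma gave adjusted p = 0.0810, 0.0655, 0.0976, 0.0916, 0.0534 and 0.0526. Over the 14 receptors the median log2 fold change was 0.03.

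Of 23 kinases, ubiquitin ligases and adaptors between receptor and IkB, 4 fell and none rose, and limma had 6 lower and 0 higher at an unadjusted p under 0.05. Both edgeR and DESeq2 had 4 lower and 0 higher. The called share was 17.4%. IKBKE, which encodes the IKK-related kinase IKK-epsilon, showed the largest fall, at 345 ± 24 normalized reads in shSRC1 and 626 ± 44 in shNT (SD, n = 4 each; log2 fold change -0.86, limma adjusted p = 4.32e-05). CHUK, which encodes IKK-alpha, the kinase that drives p100 processing, averaged 2308 ± 261 in shSRC1 and 3099 ± 91 in shNT (n = 4 each; log2 fold change -0.43, limma adjusted p = 0.00351), and lies on chromosome 10 like NFKB2. TBK1, a kinase related to IKK-epsilon, fell by 0.36 on the log2 scale (limma adjusted p = 0.0304), and the adaptor TRAF5 by 0.30 (limma adjusted p = 0.0494) with overlapping groups. TBK1 lost its call without shSRC1 replicates 1 or 2 or shNT replicates 3 or 4 (limma adjusted p = 0.0970, 0.0907, 0.0617 and 0.0764). TRAF5 lost it without shSRC1 replicates 1, 2 or 3 or shNT replicates 1, 3 or 4 (0.126, 0.109, 0.0873, 0.0914, 0.0967 and 0.102). Under upper-quartile scaling TRAF5 also missed it (0.0513). The list had 3 lower under that scaling, with no filter on low values, and with the length and GC correction with or without a replicate block. The list's median was -0.02.

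Of 11 further inhibitors, among them NFKBIB, NFKBIZ, BCL3 and the deubiquitinase gene CYLD, 10 were tested and limma called 0, with 0 at an unadjusted p under 0.05 and 0 in edgeR or DESeq2. Their log2 fold changes lay between -0.16 and 0.16.

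Of 38 genes widely described as NF-kB targets, 23 were tested, 4 fell, 2 rose and 17 did not pass, with a median log2 fold change of 0.05. The called share was 26.1%, near that of all tested genes. Among those that fell were SOD2, the mitochondrial superoxide dismutase gene, by 0.37 on the log2 scale (limma adjusted p = 0.00774), the caspase-8 inhibitor gene CFLAR by 0.30 (0.0199) and the RNase gene ZC3H12A by 0.35 (0.0200). The adhesion receptor gene VCAM1 rose, with 57.3 to 75.2 normalized reads in shSRC1 and 0 to 2.69 in shNT (log2 fold change 4.99, limma adjusted p = 1.61e-06). It passed the filter only through shSRC1 and so had to differ. The remaining calls, named after their values were seen, were CCL5, lower by a log2 fold change of -0.63 (limma adjusted p = 0.0221), and MMP9, higher by 0.64 (0.0211). CFLAR missed the threshold without shSRC1 replicates 2 or 3 (limma adjusted p = 0.0571 and 0.0509) and ZC3H12A without shSRC1 replicate 4 or shNT replicates 1 or 4 (0.0630, 0.0597 and 0.0506). CCL5 missed it without shSRC1 replicates 1 or 2 or shNT replicate 1 (0.0564, 0.0520 and 0.0731), and MMP9 without shSRC1 replicates 1 or 4 or shNT replicate 1 (0.0791, 0.0601 and 0.0524). The chemokine CXCL8 averaged 11.5 ± 5.3 in shSRC1 and 22.9 ± 7.0 in shNT (SD, n = 4 each; limma adjusted p = 0.0830).

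**Figure D5:**
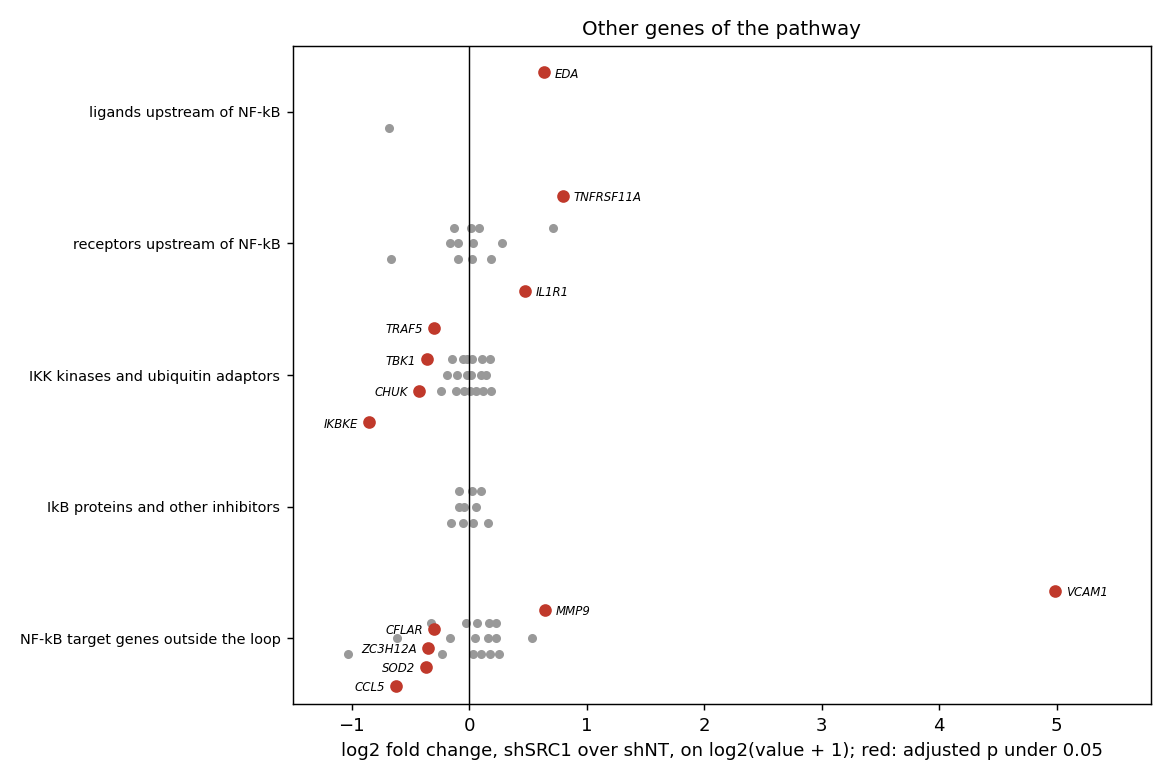
Log2 fold change, shSRC1 over shNT on log2(value + 1) (x axis), of each tested gene in 5 lists of pathway genes (rows); red and named where the limma adjusted p was under 0.05, grey otherwise, with vertical spacing for legibility only. Red points make up 6 of the 23 targets and 4 of the 23 kinases and adaptors, VCAM1 lies far right at 4.99, and the further inhibitors all lie between -0.16 and 0.16.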

How the data were processed

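Messenger RNA of 4 shSRC1 and 4 shNT libraries of LY2 cells was measured by sequencing of oligo(dT)-captured RNA, per the labels' protocols with an Illumina TruSeq kit that they do not call stranded. In the table that the authors deposited, 63677 genes have rows whose values are a signal: whole reads of a gene over the library's size factor. The build GRCh37 and the tools TopHat2 2.0.12, HTSeq 0.6.1, DESeq2 and DESeq are named per the submitters' processing notes, while their options are not stated there. Every value was a whole multiple of its library's step within 0.001 reads (100% of values), which gave the reads back; 3 reads correspond to 2.67 to 5.25 normalized reads.

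A gene was tested if 4 or more libraries had 10 normalized reads or more, which left 19559. The test was limma 3.58.1 (R 4.3.3) on log2(value + 1), with trended and robust variances, and p-values were adjusted over all genes tested. Groups and replicate numbers came from the labels, without a replicate block. Members and lists were chosen with earlier results of these data known. Of 141 list entries, 139 matched by symbol and 2 through another symbol, and of rows sharing a symbol the one with the most reads was used. Named genes were the members, NCOA1, up to 4 calls per list by smallest adjusted p, and the 3 genes nearest to each called member. BIRC2, TNF, CXCL8, CCL5, MMP9 and the called neighbours of NFKB2 were added after their values were seen. GENCODE 29 on GRCh38, joined by Ensembl identifier, gave gene order and, for 96.1% of tested genes, transcript length and GC content. Alternatives were scaling by TMM (edgeR 4.0.16) or the upper quartile, a minimum of 50 or none, a pseudocount of 0.5 or 5, the replicate number as a block, leaving out each library in turn, edgeR's quasi-likelihood test and DESeq2 1.42.0 on recovered reads, limma without trend or robust variances, a length and GC correction (mgcv 1.9.3) with and without the block, and, added after seeing the data, shNT replicate 3 and shSRC1 replicate 2 left out together.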

Additional observations from a re-analysis of the deposited data

Results flagged for a closer look

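IKBKE in shSRC1 replicate 4 stood at 309.7 normalized reads, while the other 3 shSRC1 libraries lay between 354 and 362. Its gap to the nearest of them was 0.859 of the group's range, above Dixon's 95% critical value for 4 samples. Chance alone would set apart about 1 in 20 groups, and 44 groups of 4 libraries were examined.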

How the results depend on the processing

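The falls of NFKB2, REL and BIRC3 held under each alternative that tested them, and that of TNFAIP3 under all but one, where with no filter its log2 fold change of -0.46 missed the threshold. The NFKBIA rise missed it under TMM scaling (0.24), with no filter and without trend and robust variances (0.25 each) and with shNT replicate 3 and shSRC1 replicate 2 left out together (0.19), so that 0 members rose there. TRAF1 passed with the length and GC correction (-0.46). RELA changed sign while far from the threshold, at -0.0045 under TMM, -0.0021 in edgeR, -0.00058 in DESeq2, -0.034 with the length and GC correction with or without the block, and -0.042 with those 2 libraries left out. Leaving out 1 library at a time gave 0 to 1 members higher and 4 to 4 lower, and log2 fold changes of -0.036 to 0.038 for RELA and 0.20 to 0.30 for NFKBIA. Over all genes 1450 to 2251 were lower, the fewest without shSRC1 replicate 2, in place of 2194. Among the lists it gave 2 to 4 kinases and adaptors lower, 1 to 3 receptors higher, 0 to 1 ligands higher, and 0 to 2 targets higher and 2 to 4 lower. Without trend and robust variances, kinases and adaptors had 2 lower, receptors 1 higher, ligands 1 lower and targets 1 higher, and with the 2 libraries left out together 2, 1, 0 and 1. No filter gave 1 receptor higher and 1 ligand lower, and the length and GC correction 1 further inhibitor lower with or without the block.

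Same-numbered libraries of the groups correlated in their deviations at 0.24, -0.0100, 0.13 and 0.14, and differently numbered ones at -0.21 to 0.13. The labels do not say what a replicate number shares, so the numbers were not taken as pairs. Whether same-numbered libraries share a batch was not tested. With the replicate block 3290 genes were higher and 3108 lower, in place of 2344 and 2194; the members' calls stayed at 1 higher and 4 lower, NFKBIA reached a limma adjusted p of 0.0127, and 1 kinase or adaptor was higher and 6 lower, 3 receptors higher and 5 targets lower. Depth limits BIRC3 most, on 11 to 19 reads per shSRC1 library. The cause of these shifts was not tested.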
